A study of Brassica napus with 9 samples.

Results

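Pods of the CpFatB5 line at 45 days (library 53) were set against pods of the CpFatB4 line at 45 days (library 43), which are 2 of the 9 RNA-Seq libraries of the study. The pair was taken by line and stage and by no measured value, and it covers all 91830 listed genes of rapeseed (Brassica napus). A gene was read as expressed well enough to compare when its mean over both libraries reached 1000 normalized counts, the expression limit of the study's methods, and 5596 genes (6.09%) did. Normalized counts are deposited counts divided by a size factor for each library, and log2(53/43) is the log2 ratio of the normalized counts, so that a negative value means a lower level in CpFatB5.

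The study compared the cultivar Youngsan with plants that carry a thioesterase gene of Cuphea paucipetala, at 8, 25 and 45 days. CpFatB4 and CpFatB5 plants were homozygous transgenic plants made from Youngsan and grown in a greenhouse. Both have the transgene behind a Napin promoter that is active in seeds, and Youngsan itself carries neither transgene. The CpFatB4 enzyme prefers palmitoyl chains and the CpFatB5 enzyme shorter saturated ones. Each library was made from whole pods, the pod wall with the seeds inside, and from RNA of 3 preparations that were pooled beforehand, so that every line and stage has 1 library (n = 1). The labels count the days from fertilization and the methods count them from flowering.

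Acyl-ACP thioesterases release a growing fatty acid from its carrier protein in the plastid. FatA enzymes act mostly on unsaturated chains, FatB enzymes mostly on saturated ones, and the chain that leaves goes on to oil and membranes. A filling seed of rapeseed makes storage proteins (napins and cruciferins) and oil, and afterwards, as it ripens and dries, it makes late embryogenesis abundant (LEA) proteins that protect its contents.

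With 1 library a side no difference has a replicate check, no p-value is given, and the 95% intervals cover counting error only. Library 43 held 65858614 counts over its 2 deposited columns and 53 held 38677752, the lowest total of the 9, while the others lay between 63505361 and 88259440. The 2 columns of a library are treated as repeat measurements, and over genes with at least 1000 normalized counts their log2 ratio had an SD of 0.0546 in 43 and 0.0675 in 53. The smallest share that 3 counts could show was 4.56e-06% of 43 and 7.76e-06% of 53. The 20 most abundant genes made up 38.7% of library 43, 18.1% of 53 and between 3.78% and 10.9% of the other 7 libraries.

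Of the 5596 genes, 591 (10.6%) were higher in CpFatB5 by a log2 ratio of at least 1 and 1035 (18.5%) were lower by as much, while 3970 lay between. The median log2(53/43) was -0.16, with quartiles of -0.81 and 0.35 and extremes of -7.93 and 4.69. At a log2 ratio of 2 there were 240 higher genes (4.29%) and 295 lower ones (5.27%), and at a ratio of 3 there were 70 and 130. The balance of the directions rested on the scaling. The higher genes were 36.3% of those called, against 73.1% when libraries were scaled to their totals, 64.4% when only genes averaging 1000 counts or more set the size factors, and 47.9% with totals that leave out the most abundant and the organelle-like genes. The median log2(53/43) was 0.44, 0.30 and 0.04 under these 3 scalings. Ratios near 0 are therefore given as values, without a direction.

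The 20 most abundant genes of 43 were all lower in 53, with log2(53/43) from -5.62 to -2.29, and the 7 most abundant were cruciferins and cupins. They also included 3 Napin genes of the lists used here, and 9 genes without a description whose ratios, from -5.00 to -4.55, were near those of the abundant Napin genes. Of the 20 most abundant genes of 53, 16 were higher there, 8 of them photosystem genes of the plastid-encoded-like list, and the other 4 were cruciferins and cupins that were lower. These 4 genes stood in both groups. The first 8 genes of 53 have no description in the tables used here, and the most abundant of them, BnaC08g46150D, had 31635 normalized counts in C3 (Youngsan at 45 days), 134373 in 43 and 846558 in 53.

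**Figure D1:**
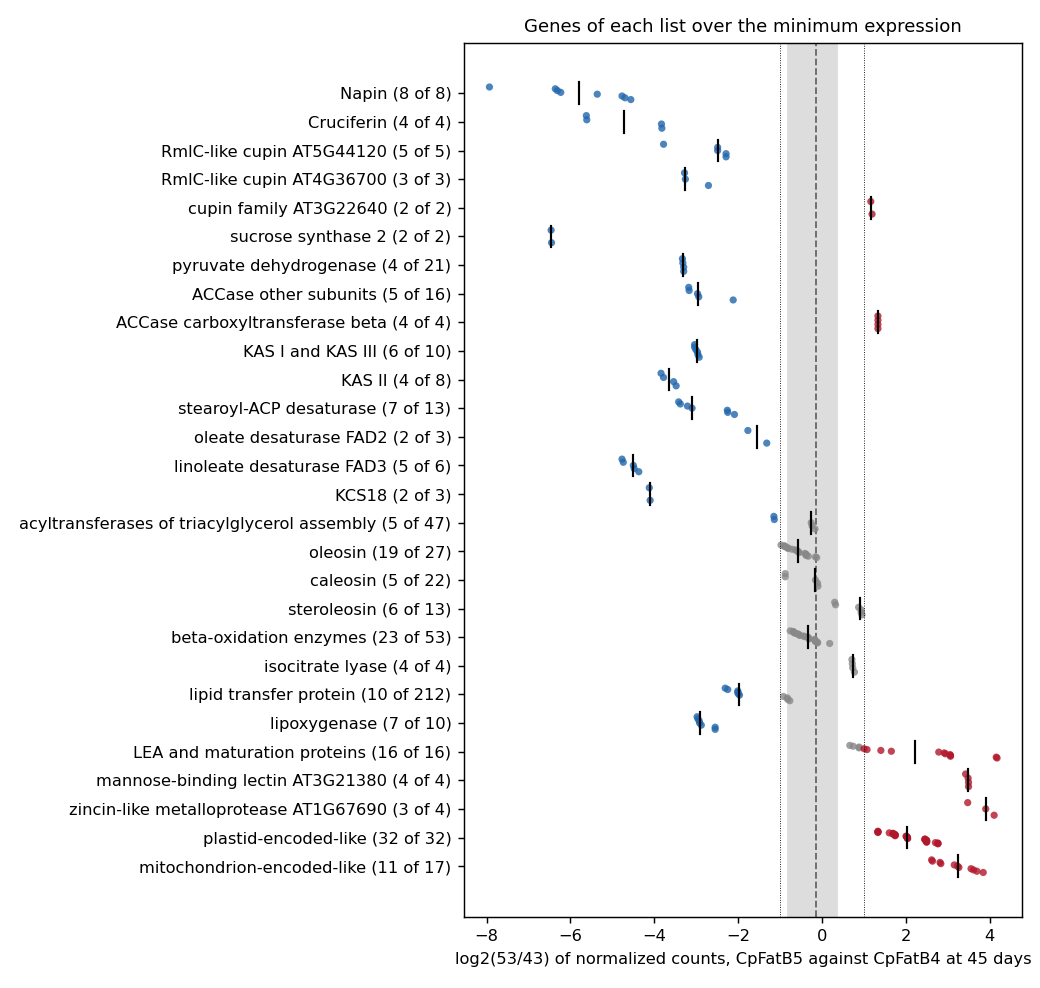
Each point is 1 gene with a mean of at least 1000 normalized counts, placed by log2(53/43) and grouped by list, with the number of members over that minimum of those in the table in brackets. Red points are at 1 or more, blue points at -1 or less, black bars are list medians, and the grey band with the dashed line gives the quartiles (-0.81 and 0.35) and the median (-0.16) of all 5596 genes. Storage protein and fatty acid synthesis lists lie to the left of the band, and LEA, lectin, metalloprotease and organelle-like lists to the right.

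Storage protein genes were among the genes furthest below CpFatB4. Several lists were drawn from genes the study had singled out in comparisons of these same libraries. They are those of storage proteins, cupins, seed gene 3, sucrose synthase, lectins, metalloproteases, isocitrate lyase, seed coat laccase and lipoxygenases. The SAG12-like, clock-linked, LEA and organelle-like lists had the same origin. Their counts are therefore no independent evidence of a direction. The other lipid gene lists came from a catalogue by gene family. However, the study had already reported several of these families as changed in the same libraries, desaturases and pyruvate dehydrogenase among them. For these families, too, the counts are no independent evidence of a direction. All 8 Napin genes, which encode the small albumin storage proteins of the seed, were lower in 53, beside 18.5% of all genes over the minimum, with a median log2(53/43) of -5.79 and values from -7.93 to -4.56. Whole pods were sampled, so fewer seed cells and less RNA per cell cannot be told apart. As a share of all counts, the Napin genes made up 5.51% of library 43 (95% Wilson interval 5.50% to 5.52%), 0.282% of 53 (0.279% to 0.284%) and 0.666% of C3.

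BnaC01g43250D, the most abundant Napin gene, had 92884 normalized counts in C3, 944030 in 43 and 40101 in 53, a log2(53/43) of -4.56 (95% interval -4.58 to -4.54). Its raw counts were 571373 and 566501 in the columns of 43 and 20610 and 20731 in those of 53. The values of the columns of each library thus lay close together, and the libraries lay far apart. BnaC01g19320D had 883783 normalized counts in 43 and 34056 in 53, and BnaA01g17200D had 665244 and 24366. BnaC08g12450D, described as seed storage albumin 3, was the gene with the lowest ratio of all, at 45.9 normalized counts in C3, 2356 in 43 and 9.69 in 53 (log2 -7.93, 95% interval -9.15 to -6.70). The rare and the abundant Napin genes were thus all lower, and the size of the ratio did not simply follow abundance. BnaA03g48490D had 234502 normalized counts in 43 and a log2 ratio of -6.31, and BnaA08g14120D had 2310 and -6.36. The lowest ratio, that of BnaC08g12450D, rests on raw counts of 4 and 6 in 53. At 25 days BnaC01g43250D had 237761 normalized counts in C2 (Youngsan), 258761 in 42 (CpFatB4) and 151978 in 52 (CpFatB5), a much narrower range than at 45 days.

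The 4 Cruciferin genes, which encode globulin storage proteins, were likewise all lower, with a median of -4.72. BnaA01g08350D, a cruciferin 3 gene and the most abundant gene of 43, had 387583 normalized counts in C3, 2707171 in 43 and 191612 in 53 (log2 -3.82, 95% interval -3.83 to -3.81). The cruciferin 2 gene BnaA10g02240D had 117698, 982394 and 19985 (log2 -5.62, 95% interval -5.65 to -5.59), so the cruciferin 2 genes were further down than the cruciferin 3 genes. The 4 genes made up 13.2% of library 43, 1.09% of 53 and 2.52% of C3. The 5 cupin genes similar to AT5G44120, a cruciferin gene of Arabidopsis, had log2 ratios from -3.78 to -2.29 and made up 8.61% of 43 and 2.01% of 53. The 3 cupin genes similar to AT4G36700 had ratios from -3.28 to -2.71, and both seed gene 3 copies were lower too (-2.34 and -2.33).

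The cupin genes did not all go the same way. Both genes similar to AT3G22640, a cupin family protein, were higher in 53. BnaCnng28630D had 82472 normalized counts in C3, 42793 in 43 and 97361 in 53 (log2 1.19, 95% interval 1.16 to 1.21), and BnaA01g24560D had 79515, 41561 and 92948 (log2 1.16).

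**Figure D2:**
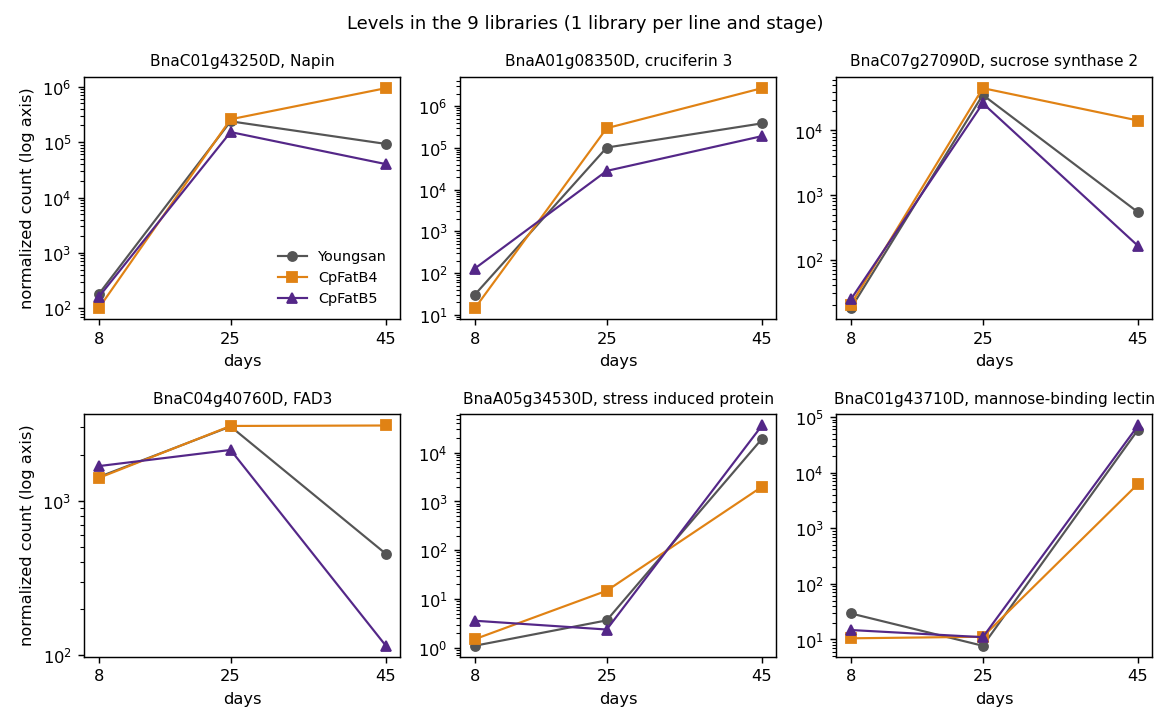
Normalized counts (log axis) of 6 genes at 8, 25 and 45 days, with 1 library per point and no error bar. At 45 days CpFatB4 lies highest in the panels of Napin BnaC01g43250D (944030), cruciferin BnaA01g08350D (2707171), sucrose synthase BnaC07g27090D and FAD3 BnaC04g40760D, and lowest in those of BnaA05g34530D and BnaC01g43710D, with Youngsan between the transgenic lines in all 6.

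The other genes with the lowest ratios were few in kind. Sucrose synthase, which splits sucrose for use by the filling seed, was represented by BnaA06g29670D, with 498 normalized counts in C3, 13546 in 43 and 154 in 53 (log2 -6.46, 95% interval -6.77 to -6.14). Its copy BnaC07g27090D had 542, 14261 and 163 (log2 -6.45). Youngsan thus stood much nearer to CpFatB5 than to CpFatB4. At 25 days the same gene had 35527 normalized counts in C2, 45211 in 42 and 26359 in 52, so CpFatB4 at 45 days lay between the levels of the stages. A pair of genes for GDSL-like lipases, BnaC06g06810D (802, 13424 and 133 normalized counts in C3, 43 and 53) and BnaA06g01410D (224, 3600 and 46.5), had log2 ratios of -6.66 and -6.27. The other places among the 10 lowest went to 4 Napin genes and to BnaA03g35720D and BnaC03g41590D, which carry no description and had log2 ratios of -6.16 and -6.14.

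Genes of plastid fatty acid synthesis, the pathway from which the thioesterases withdraw chains, were mostly lower in CpFatB5. The pathway list held 120 measured genes, of which 22 reached the minimum, 17 of them lower, 4 higher and 1 between, beside 18.5% lower and 10.6% higher of all genes over the minimum. With library totals 8 of 14 over the minimum were lower. A gene can reach this minimum through 1 library alone, so all members were also counted: 89 of the 120 had a log2 ratio of -1 or less and 4 had 1 or more, and their median was -2.08. The list made up 0.188% of library 43, 0.0944% of 53 and 0.107% of C3. The 4 higher genes alone took 0.011% of 43, 0.0402% of 53 and 0.00226% of C3. The share of the list in 53 thus holds a large part that went the other way.

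Pyruvate dehydrogenase, which supplies acetyl-CoA, was lower in all 4 genes over the minimum, for example in BnaC08g46110D with 1032 normalized counts in C3, 3856 in 43 and 393 in 53 (log2 -3.30, 95% interval -3.50 to -3.09). Over its 21 genes the median was -2.38. Acetyl-CoA carboxylase (ACCase) commits acetyl-CoA to fatty acids, and its nucleus-encoded subunits had a median of -3.04 over 16 genes, all at -1 or less. BnaA09g48250D, a biotin carboxylase subunit, had 684 normalized counts in C3, 2076 in 43 and 229 in 53 (log2 -3.18). The carboxyltransferase beta subunit, encoded in the plastid in Arabidopsis, went the other way: its 4 copies shared identical counts, 220 normalized counts in C3, 1506 in 43 and 3773 in 53 (BnaA10g13960D, log2 1.33, 95% interval 1.21 to 1.44). These 4 copies are the 4 higher genes of the pathway. BnaC08g06560D, a homomeric ACCase gene, was just inside the limit (5569 in 43 and 2737 in 53, log2 -1.02).

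The condensing enzymes that lengthen the chain were lower throughout. Ketoacyl-ACP synthases I and III had a median of -2.94 over 10 genes, all at -1 or less, with BnaA06g36060D at 939 normalized counts in C3, 3249 in 43 and 395 in 53 (log2 -3.04). Ketoacyl-ACP synthase II, which makes the last step to the stearoyl chain, had a median of -3.66 over 8 genes, all at -1 or less. BnaC06g35760D had 663, 2365 and 203 (log2 -3.54). Of the reductases and dehydratase of the cycle only BnaC08g26120D reached the minimum, at 1015 normalized counts in 43 and 1016 in 53, and over the 28 members the median was -2.06. None of the 10 acyl carrier protein genes or the 6 malonyltransferase genes did, and their medians over all members were -0.77 and -2.03.

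Stearoyl-ACP desaturase turns the saturated stearoyl chain into oleoyl in the plastid. All 7 genes over the minimum were lower, and all 13 listed genes were at -1 or less, with a median of -3.28. BnaA03g28050D, the most abundant, had 3552 normalized counts in C3, 6711 in 43 and 1402 in 53 (log2 -2.26, 95% interval -2.37 to -2.15). BnaA03g20420D had 984, 5574 and 520 (log2 -3.42). The ratio went with the Arabidopsis gene that a copy resembles: the 3 copies like AT3G02630 lay between -2.26 and -2.09, and the 4 like AT2G43710 between -3.42 and -3.10.

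The thioesterase genes of rapeseed itself were below the minimum in the pair, and they are given as sums of raw counts, the mean of the 2 columns. The 7 FatA genes summed to 1012 in 43 and 238 in 53, and the 7 FatB genes to 2443.5 and 1575. The ratio of FatB to FatA, which needs no scaling between libraries, was 2.41 in 43 (95% interval 2.24 to 2.60), 6.62 in 53 (5.77 to 7.58) and 5.87 in C3 (5.41 to 6.37). The intervals of 53 and C3 overlapped and that of 43 lay below both. At 25 days the ratio was 1.81 in C2, 2.09 in 42 and 2.09 in 52, and at 8 days it was 5.79, 5.73 and 5.84 in C1, 41 and 51. Library 43 was thus nearer to the libraries at 25 days than to the other 2 at 45 days.

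By gene, FatA was uneven. After scaling, the FatA sum had a log2(53/43) of -1.86 (95% interval -2.07 to -1.66), and it stayed between -1.94 and -1.32 under the other scalings. BnaA07g05070D had 299 normalized counts in 43 and 41.7 in 53 (log2 -2.84), and BnaA04g07120D had 371 and 60.1 (log2 -2.62). BnaC06g08830D had 45.6 and 67.9 (log2 0.57, 95% interval -0.14 to 1.29), so that its interval reached across 0, and BnaA03g37700D had 144 and 97.0 (log2 -0.57). FatB showed no such spread, with 7 values between -0.52 and -0.23. Its sum had a log2 ratio of -0.41 (95% interval -0.50 to -0.32), which became 0.13 with library totals and 0.02 with size factors from abundant genes, so its direction turned. The FatB gene with the most counts, BnaA06g04900D, had 810 normalized counts in C3, 720 in 43 and 567 in 53.

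Desaturases and an elongase that finish the acyl chains outside the plastid were lower as well. Linoleate desaturase (FAD3), which makes linolenic acid, had 6 genes between -4.77 and -4.23, 5 of them over the minimum. BnaC04g40760D had 454 normalized counts in C3, 3085 in 43 and 115 in 53 (log2 -4.74, 95% interval -5.11 to -4.37). Oleate desaturase (FAD2), which makes linoleic acid, differed by less: BnaC05g40970D had 4550, 8242 and 3306 (log2 -1.32) and BnaA05g26900D had 3086, 6646 and 1942 (log2 -1.77). Under library totals and under size factors from abundant genes 1 of these 2 FAD2 genes was still called.

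KCS18 is the ketoacyl-CoA synthase that makes very long acyl chains in the seed, known in Arabidopsis as FAE1. BnaA08g11130D had 3133 normalized counts in C3, 18294 in 43 and 1053 in 53 (log2 -4.12, 95% interval -4.24 to -3.99), and its copy BnaC03g65980D had 3069, 17889 and 1044. The third copy, BnaC07g45070D, was below the minimum with 575 in 43 and had a like ratio (log2 -4.17, 95% interval -4.87 to -3.46).

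Among genes over the minimum, those of triacylglycerol assembly and the coats of oil bodies stood apart from the genes above. Of the 5 acyltransferase genes of triacylglycerol assembly over the minimum, 2 were lower and 3 lay between, and BnaA07g36000D, a diacylglycerol acyltransferase, had 2980 normalized counts in 43 and 2516 in 53 (log2 -0.24). The lower pair, with BnaC08g46660D at -1.15, was not called with library totals, with or without the most abundant genes, nor with size factors from abundant genes. Over all 47 acyltransferase genes, 7 were at 1 or more and 4 at -1 or less. Oleosins, which coat oil bodies, had 19 genes over the minimum and none was called, with values from -0.98 to -0.13, while 1 was called lower with TMM and with size factors from the pair alone. BnaA08g14540D, the most abundant of them, had 124565 normalized counts in C3, 173916 in 43 and 114536 in 53. Over all 27 oleosin genes, 0 were at 1 or more and 2 at -1 or less. The oleosin list made up 2.33% of C3, 2.19% of 43 and 2.08% of 53, where the Napin share differed many times over. These shares follow the library totals: the oleosin sum had a log2(53/43) of -0.08 with library totals and of -0.62 with the main scaling.

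None of the 5 caleosin and 6 steroleosin genes over the minimum was called either. Caleosins had ratios from -0.88 to -0.10. Steroleosins lay between 0.30 and 0.95, and BnaCnng57830D had 44460 normalized counts in C3, 23814 in 43 and 46029 in 53 (log2 0.95, 95% interval 0.92 to 0.98). With library totals, with or without the most abundant genes, and with size factors from abundant genes 4 of these 6 were called higher. Over all 22 caleosin genes, 3 were at 1 or more and 0 at -1 or less. Over all 13 steroleosin genes, 0 were at 1 or more and 4 at -1 or less.

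**Figure D3:**
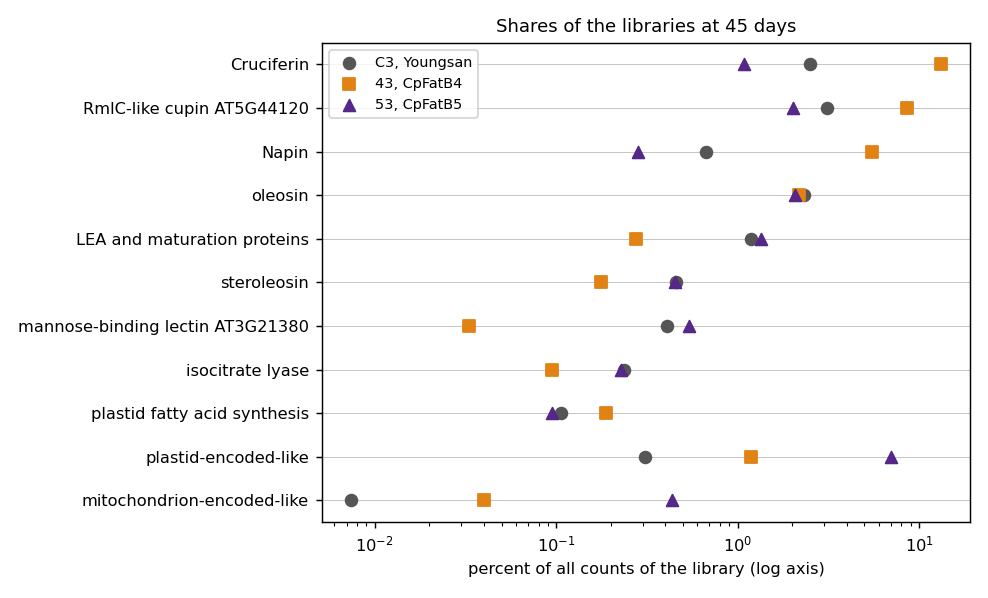
Percent of all counts of a library (log axis) that each gene list took in the 3 libraries at 45 days. Comparing these shares amounts to scaling the libraries to their totals, and their counting intervals are narrower than the symbols. Cruciferin (13.2%) and Napin (5.51%) are highest in 43, oleosin lies between 2.08% and 2.33% in all 3, LEA is lowest in 43 (0.275%), and both organelle-like lists are highest in 53 (7.03% and 0.436%).

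For the breakdown of fatty acids, beta-oxidation enzymes had 23 genes over the minimum and none was called, with ratios from -0.76 to 0.18. Their sum had a log2 ratio of -0.25, which turned to 0.29 with library totals and to 0.17 with size factors from abundant genes, where 2 of 28 genes were called higher. BnaA05g10480D, a ketoacyl-CoA thiolase that performs the last step of a beta-oxidation round, had 13310 normalized counts in C3, 8933 in 43 and 7950 in 53. Isocitrate lyase, an enzyme of the glyoxylate cycle that turns stored oil into sugar, had 4 genes between 0.71 and 0.77. BnaA03g36420D had 24264, 14199 and 23322 (log2 0.72, 95% interval 0.68 to 0.76), and with library totals and with size factors from abundant genes all 4 were called higher. The 2 triacylglycerol lipase genes over the minimum were lower: BnaA05g25110D had 863, 3186 and 269 (log2 -3.57) and BnaC05g39290D 850, 3115 and 264 (log2 -3.56). Over all 51 lipase genes the median was 0.00.

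Lipoxygenases, which oxidize polyunsaturated fatty acids, were lower in all 7 genes over the minimum, beside 18.5% of all genes, and had a median of -2.93 over 10 genes, all at -1 or less. This list was also drawn from genes the study had singled out in these libraries. BnaC06g18870D had 5553 normalized counts in C3, 7706 in 43 and 1311 in 53 (log2 -2.55, 95% interval -2.67 to -2.44). Lipid transfer proteins, small secreted proteins that carry lipids, had 10 genes over the minimum of 212, 6 lower and 4 between. BnaC04g45790D had 4359, 9434 and 2354 (95% interval of the log2 ratio -2.09 to -1.91), and the median of all 212 was 0.00.

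Genes of late seed maturation were higher in CpFatB5. Of the 16 LEA and maturation genes, all over the minimum, 12 were higher, beside 10.6% of all genes, and the other 4 lay between 0.66 and 0.88. This list, too, was drawn from comparisons of these same libraries. The number called was between 10 and 16 over the other scalings. BnaA05g34530D, a stress induced protein similar to AT2G40170, had 19292 normalized counts in C3, 2009 in 43 and 36177 in 53 (log2 4.17, 95% interval 4.09 to 4.25). Its raw counts were 1239 and 1183 in 43 and 18655 and 18640 in 53. BnaCnng27950D, of the same kind, had 19184, 2022 and 35870 normalized counts (log2 4.15).

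The LEA genes differed among themselves. BnaA05g17150D, a seed maturation protein gene, had 35004 normalized counts in C3, 5649 in 43 and 47187 in 53 (log2 3.06). BnaC04g47570D, the most abundant of the list and an LEA protein M10 gene, had 81186, 45654 and 84123 (log2 0.88), and BnaA05g08680D, of LEA group 1, had 4942, 2938 and 4648 (log2 0.66). The most abundant gene thus had a log2 ratio below 1, and the smallest ratio of the list was that of a gene with a far lower level in 43. For BnaA04g24580D, a gene with an LEA domain, CpFatB4 and CpFatB5 were both below Youngsan (28325, 5072 and 10683, log2 1.07). BnaC04g48420D, just inside the limit at a log2 of 1.00, had the same order (42396, 7525 and 15090).

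Lectin, metalloprotease and DUF642 genes likewise had their lowest level at 45 days in CpFatB4. The 4 mannose-binding lectin genes similar to AT3G21380, which belong to a family of sugar-binding proteins, lay between 3.42 and 3.49. BnaC01g43710D had 59190 normalized counts in C3, 6279 in 43 and 70276 in 53 (log2 3.48, 95% interval 3.44 to 3.53). All 3 genes over the minimum for zincin-like metalloproteases, which are peptidases, were higher, and BnaA07g26590D had 6159, 265 and 4530 (log2 4.10). The highest ratio of all was that of BnaC09g45170D, a DUF642 protein of unknown function, with 2336 normalized counts in C3, 82.1 in 43 and 2125 in 53 (log2 4.69, 95% interval 4.28 to 5.10). BnaC03g72930D and BnaA03g24900D, without a description, had log2 ratios of 3.98 and 3.90. In these genes Youngsan was nearer to CpFatB5 than to CpFatB4.

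The organelle-like genes, named for the Arabidopsis plastid or mitochondrial gene they resemble, were higher in CpFatB5, in lists drawn from genes the study had singled out in these libraries. All 32 plastid-encoded-like genes were over the minimum and higher, beside 10.6% of all genes, with a median of 2.03 and values from 1.33 to 2.76. Several share identical counts, and they are not 32 separate measurements. BnaC03g60960D, like the photosystem II gene ATCG00280, had 5101 normalized counts in C3, 28290 in 43 and 158872 in 53 (log2 2.49, 95% interval 2.47 to 2.51). BnaC09g27600D, like the gene of the large subunit of the carbon-fixing enzyme Rubisco, had 259, 2309 and 15606 (log2 2.76). The list made up 7.03% of library 53 (95% Wilson interval 7.02% to 7.04%), 1.18% of 43 and 0.307% of C3.

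The 17 mitochondrion-encoded-like genes were all at 1 or more, 11 of them over the minimum, with a median of 3.26 over all 17. BnaCnng12800D, like NADH dehydrogenase 5A, had 160 normalized counts in C3, 840 in 43 and 12030 in 53 (log2 3.84, 95% interval 3.71 to 3.97). BnaCnng12640D, like ATMG00030, had 1874, 13534 and 83725 (log2 2.63). In these genes both transgenic lines were above Youngsan, which was not so in the LEA genes.

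The direction of the organelle-like genes was not the same at each stage. At 8 days the 32 plastid-encoded-like genes had a median log2(CpFatB5/CpFatB4) of 1.19 with all above 0, at 25 days a median of -1.86 with 1 above 0, and at 45 days 2.03 with all above 0. As shares of the counts they made up 0.465% of 41 and 0.839% of 51 at 8 days, and 0.120% of 42 and 0.0621% of 52 at 25 days. At 45 days they made up 1.18% of 43 and 7.03% of 53. Comparing such shares amounts to scaling the libraries to their totals. The 11 mitochondrion-encoded-like genes over the minimum had medians of 1.22, -1.24 and 3.23. The plastid-encoded-like shares of the Youngsan libraries C1, C2 and C3, 0.127%, 0.259% and 0.307%, varied less than those of the transgenic lines.

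**Figure D4:**
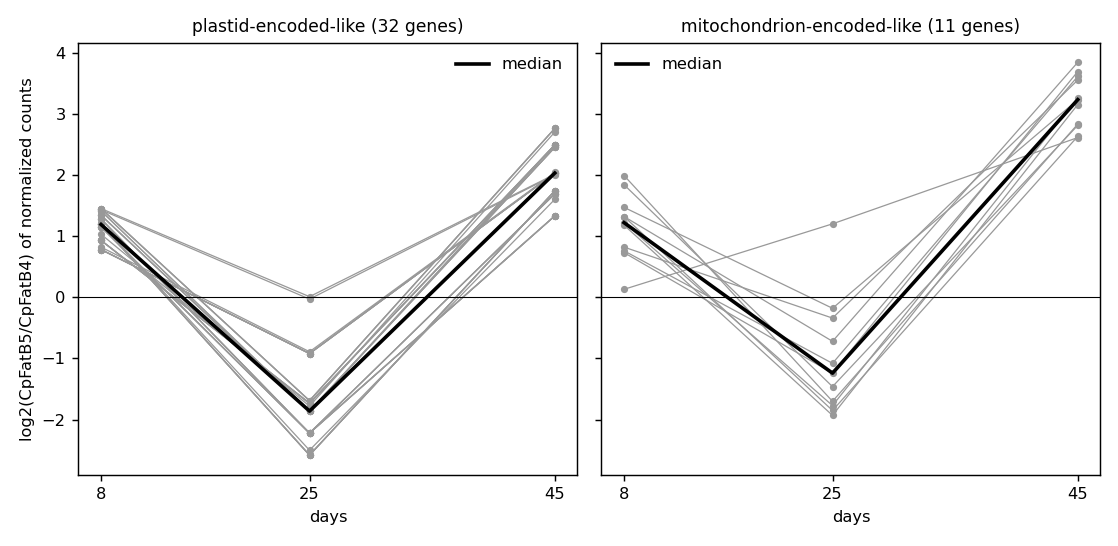
Log2 ratio of CpFatB5 to CpFatB4 in normalized counts at 8, 25 and 45 days for the organelle-like genes over the minimum at 45 days; each grey line is 1 gene and the black line the median, with 1 library per line and stage. The medians go from 1.19 to -1.86 to 2.03 on the left and from 1.22 to -1.24 to 3.23 on the right.

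Among regulators, the homologs of maize Viviparous-1, known in Arabidopsis as ABI3 and a master regulator of seed maturation, were the only B3 factors over the minimum. BnaA03g37510D had 3287 normalized counts in C3, 3981 in 43 and 1657 in 53 (log2 -1.26, 95% interval -1.38 to -1.15), and BnaC03g44820D had 2916, 3526 and 1432 (log2 -1.30). Neither was called with library totals or with size factors from abundant genes. The copies similar to AT3G54320, which is WRINKLED1 of Arabidopsis, an activator of fatty acid synthesis, were below the minimum: BnaA07g16350D had 204, 661 and 65.0 (log2 -3.35, 95% interval -3.85 to -2.84) and BnaC08g25150D had 175, 560 and 87.3 (log2 -2.68). The 3 ABI factor genes similar to AT2G40220 had ratios of -0.28, 0.19 and 0.47, each with an interval across 0. Of 7 clock-linked RNA-binding protein genes, 3 were lower, with values from -1.21 to -0.55, and none was called with library totals or with size factors from abundant genes.

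Markers of other parts of the pod were checked in the same pair. The laccase genes like AT5G48100, a seed coat marker, were below the minimum, with BnaC02g38340D at 401 normalized counts in C3, 1020 in 43 and 181 in 53 (log2 -2.49, 95% interval -2.81 to -2.18). Both SAG12-like protease genes, a marker of senescence in Arabidopsis, had ratios of 0.23 and 0.25, with BnaA06g40240D at 960, 796 and 931. None of the 35 cuticle (CER) genes reached the minimum, their median was -0.38, and 1 of them was at the lowest deposited count in both libraries. Summed over their lists, laccase genes had 1970 normalized counts in 43 and 355 in 53, SAG12-like genes 1585 and 1869, and CER genes 5186 and 4808. The seed markers Napin, Cruciferin and oleosin were abundant in both libraries. The part of these marker levels in the other results was not tested.

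The line difference was then placed beside the change with age in Youngsan, from C2 at 25 days to C3 at 45 days, libraries that are not in the pair. Between C2 and C3 themselves, 23.4% of 6899 genes over the minimum were higher and 21.1% lower at 45 days. Over the 5596 genes log2(53/43) had a Spearman correlation of 0.65 and a Pearson correlation of 0.55 with log2(C3/C2), a description across genes, which are not independent. Without the genes of the lists it was 0.66 over 5347 genes, and over the alternatives tried it lay between 0.63 and 0.69. Of the 741 genes at least 2-fold lower at 45 days than at 25 days in Youngsan, 531 (71.7%) were lower in 53 and 31 (4.18%) higher, with a median of -1.41. Of the 1778 genes at least 2-fold higher at 45 days, 500 (28.1%) were higher in 53 and 76 (4.27%) lower, with a median of 0.52. The 3077 genes between had a median of -0.26.

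**Figure D5:**
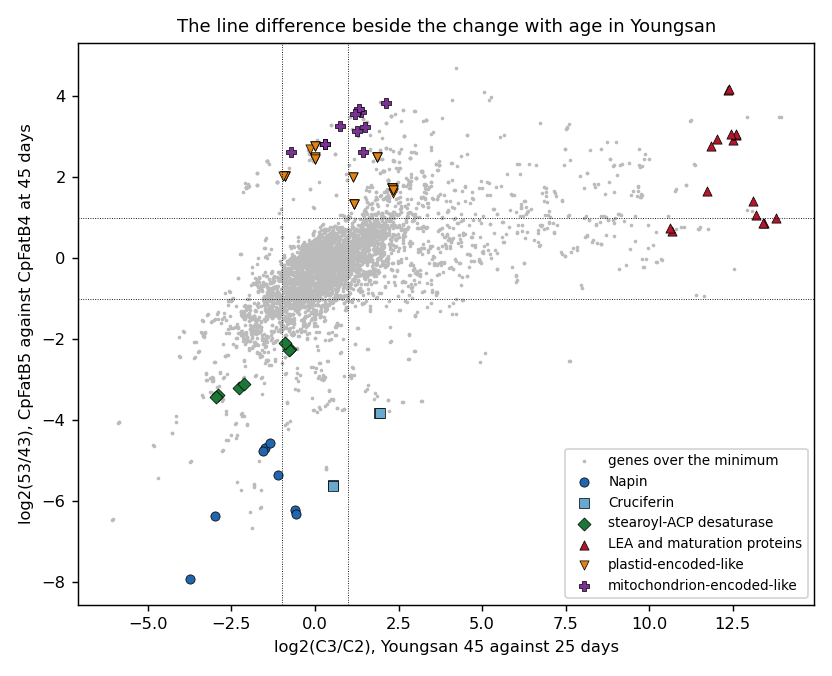
Each point is 1 of the 5596 genes over the minimum, placed by its log2 ratio of 45 to 25 days in Youngsan (horizontal) and by log2(53/43) (vertical), with 6 lists marked. Genes low at 45 days in Youngsan mostly have a negative log2(53/43); Cruciferin genes lie below the cloud and organelle-like genes above it.

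Single groups departed from this relation. The 4 Cruciferin genes had log2(C3/C2) between 0.53 and 1.93 and were lower in 53, and BnaA07g19600D, a lipoxygenase, had 0.37 and a log2(53/43) of -2.55. BnaC09g27600D of the plastid-encoded-like list had 0.01 in Youngsan and 2.76 in the pair.

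Levels at 25 days separated the 2 sets of genes as well. Of the 591 genes higher in 53, 241 (40.8%) had under 100 normalized counts in all of C2, 42 and 52, against 5.52% of all genes over the minimum. Of the 1035 lower genes, 935 (90.3%) had at least 1000 in each of the 3, against 69.4% of all.

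Youngsan at 45 days lay between the transgenic lines for most of the lower genes. C3 was between 43 and 53 in 936 of the 1035 lower genes (90.4%), above both in 83 and below both in 16. For the 591 higher genes C3 was between in 199 (33.7%), above both in 155 and below both in 237. Over all 5596 genes, the called ones included, it was between in 38.1%. Called genes were picked for a wide gap between 43 and 53, which by itself leaves more room for C3 to fall between. The median log2 ratio to C3 was 0.73 for 43 and -0.95 for 53 in the lower genes, and -1.05 and 0.44 in the higher genes. Each gene's comparison with C3 shares that library, so the values of the lines are set side by side and not compared further.

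At the earlier stages CpFatB5 and CpFatB4 differed in far fewer genes. By the same limits 7 of 6434 genes (0.109%) were higher and 87 (1.35%) lower in CpFatB5 at 25 days, 1.46% in either direction. At 8 days 33 of 5219 (0.632%) were higher and 9 (0.172%) lower, 0.805% in either direction, and at 45 days 29.1% were called in either direction. Across the 5596 genes log2(53/43) had a Spearman correlation of 0.09 with log2(52/42) and of 0.02 with log2(51/41). Of the 966 lower genes that reached the minimum at 25 days, 43 (4.45%) were lower then too and 0 higher. Among them were the Cruciferin genes, and BnaA01g08350D had 296814 normalized counts in 42 and 28120 in 52 (log2 -3.40). Of the 56 higher genes that reached the minimum at 25 days, 16 (28.6%) were lower then and 0 higher. Of the 97 higher genes that reached it at 8 days, 26 (26.8%) were higher then too and 0 lower.

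Some late genes had opposite ratios at 25 and 45 days at very different levels. BnaCnng28630D, the cupin similar to AT3G22640, had a log2 ratio of -5.33 at 25 days and of 1.19 at 45 days. BnaA03g36420D of isocitrate lyase had -4.14 and 0.72. At 25 days both genes were far below the minimum of 1000. In 52 they had only 3.95 and 2.76 normalized counts, and the latter was set to 3 before the ratio was taken. The size of these ratios at 25 days therefore rests on levels at or near that floor. At 25 days such transcripts were still scarce: BnaC04g47570D, the LEA M10 gene, had 22.4 normalized counts in 42 and 3.16 in 52, against 45654 and 84123 at 45 days. At 8 days it had 3.74 in 41 and 9.0 in 51.

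By the chromosome in the gene identifier, the median log2(53/43) lay between -0.28 and 0.01 over the 19 numbered chromosomes. The share of lower genes was between 15.5% and 22.8%. The share of higher genes was lowest on A07 (4.64%) and highest on C09, with 82 of 315 genes. Of these 82, 61 lay in 4 runs of at least 4 neighbouring identifiers over the minimum, all higher, of which the first to the last were BnaC09g16410D to BnaC09g16660D, BnaC09g26480D to BnaC09g26910D, BnaC09g27510D to BnaC09g27690D and BnaC09g29090D to BnaC09g29330D. The third of these runs held 7 organelle-like genes. Counted once where counts were identical, 48 genes on C09 were higher. The longest run, of 25 genes, was on unplaced C sequence (BnaCnng12430D to BnaCnng13120D) and held 7 organelle-like genes. Runs of lower genes were shorter, the longest of 6 genes from BnaC08g40850D to BnaC08g42260D, and that from BnaC01g19300D to BnaC01g19640D held a Napin gene.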

How the data were processed

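RNA-Seq libraries of whole pods were analysed. The authors trimmed reads with SolexaQA and mapped them with Bowtie2 2.1.0 (per the labels) against coding sequences of the Genoscope B. napus genome. How counts were made from reads that fit several genes is not given in the sources used here. In every library but 53, each column held more counts than the trimmed reads the paper lists for it. Similar gene copies may therefore share reads, which was not tested, and need not be separate measurements. The deposited table holds 18 raw columns, 2 per library, whole numbers of at least 1 recorded as other because of commas in their cells. It also holds 13 columns of values the authors normalized with DESeq, given here the unit score; they are missing for 5 raw columns. Median-of-ratios size factors over the 18 raw columns gave values within 0.500 of those score columns. A library's value is the mean of its 2 normalized columns, and values under 3 were set to 3 before a ratio was taken. Called genes had a mean of at least 1000 and a log2 ratio of at least 1 or at most -1; with 1 library a side no test was run. Intervals are Wilson intervals at 95% on the mean of the 2 columns, since what these columns stand for is not explained, and cover counting error only.

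Gene lists and descriptions came from the paper's text and supplementary tables. Lists and comparison were chosen with earlier results of these data known. The rule for named genes took the 10 highest and 10 lowest ratios over the minimum (identical genes once), in each list the highest, the lowest and the most abundant member over the minimum, and every FatA, FatB, Napin and Cruciferin gene of the paper's text; other list members, the unannotated abundant gene and the genes of the closing section were chosen after their values were seen. No sequence or promoter was used, since the tables in hand give none for these identifiers, and the planned promoter motif count was not run. The transgenes were not analysed here. Software was Python 3.11.15 with matplotlib 3.10.9, scipy 1.17.1, pandas 2.3.3 and numpy 2.4.6. The rule was tested on simulated data in which few genes differed, in equal numbers up and down, in 1 library. Such data cannot show how the rule fares when as many genes differ as here, or which scaling is right.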

Additional observations from a re-analysis of the deposited data

Results flagged for a closer look

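Against CpFatB4, 16 genes were higher in CpFatB5 at 45 days and lower at 25 days by a log2 ratio of at least 1. The minimum was met at both stages. They were 28.6% of the 56 higher genes that reached it at 25 days, beside 1.35% lower of all genes over the minimum then. The difference between the stages was not tested. Of these genes 1 is a mitochondrion-encoded-like gene, BnaCnng12640D, with 1879 normalized counts in 42, 522 in 52, 13534 in 43 and 83725 in 53. BnaC09g16480D, whose counts equal those of BnaC09g26880D, BnaC09g29120D and BnaUnng00820D among the 16, had 1377, 634, 5351 and 18808. No gene had the opposite pattern, lower at 45 days and higher at 25 days, when only 7 of 6434 genes were higher in CpFatB5 at 25 days.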

How the results depend on the processing

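The counts of higher and lower genes kept within 1.5 times under median of ratios over the pair alone, TMM, totals without abundant genes, the higher library as minimum, either column, 1 subtracted and identical genes counted once. With library totals they were 998 and 368, and with size factors set on genes averaging 1000 counts or more they were 1177 and 650. A minimum of 200 gave 2006 and 3711, a minimum of 10 gave 8066 and 11072, a mean over all 9 libraries gave 303 and 1625, and a log2 ratio of 2 gave 240 and 295. The cause of these shifts was not tested, beyond the number of genes compared (23160 and 61192 at the lower minimums). The share of lower genes with Youngsan between the lines stayed between 82.1% and 98.6%. It was highest at a log2 ratio of 2, where the gap between the lines is widest by choice. Of 74 named genes at a log2 ratio of 1 or more, or -1 or less, 0 changed sign under the other scalings, while 8 of the 27 between these limits did, BnaA05g10480D and BnaA07g36000D among them. Of 29 list medians past these limits, 1 changed sign under any setting, that of the triacylglycerol lipases (0.13 at a minimum of 200, with more genes), and 6 of the 11 between them did: caleosins, beta-oxidation enzymes, acyltransferases, sphingolipid genes, and the whole triacylglycerol synthesis and fatty acid degradation lists. No paired analysis was possible because there is a single library for every line at a stage, which is also why none could be left out, and the promoter motif count was not run. Levels under about 10 counts are near the added 1 and carry little.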

Other observations

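No gene was called in the same direction at all 3 stages between CpFatB5 and CpFatB4, of 3118 genes over the minimum at each, and 0 were at a minimum of 200. At a minimum of 50, chosen after seeing the data, 9 of 36431 genes were, 2 higher and 7 lower in CpFatB5. BnaA09g25650D had 246, 313 and 524 normalized counts in Youngsan at 8, 25 and 45 days, while CpFatB4 had 262, 318 and 475, and CpFatB5 had 10.4, 22.9 and 18.4 (log2 ratios -4.66, -3.80 and -4.69). BnaC06g21460D had the same pattern, where Youngsan had 188, 216 and 387, CpFatB4 had 191, 217 and 329, and CpFatB5 had 9.01, 15.4 and 13.6. In this pair of genes CpFatB5 stood apart from both other lines at every stage.

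In the other lower genes CpFatB4 was the line apart. For BnaA03g50270D the Youngsan levels were 74.5, 52.8 and 6.16, those of CpFatB4 332, 157 and 116, and those of CpFatB5 106, 65.5 and 9.71. For BnaC07g42740D they were 69.7, 62.5 and 7.28 (Youngsan), 423, 206 and 151 (CpFatB4), and 106, 69.8 and 11.6 (CpFatB5). The 2 higher genes were high in CpFatB5 alone: the CpFatB5 levels of BnaC01g37630D were 241, 179 and 190, against 95.7, 40.7 and 48.9 for CpFatB4 and 119, 37.0 and 45.4 for Youngsan. None of the 9 has a description in the tables used here.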
